A study of Mus musculus with 16 samples.

Results

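The effect of extra leukotriene A4 hydrolase (LTA4H) on gene expression in visceral fat was compared between a short and a long period on a high-fat diet. All 16 libraries of the series, 4 in each of 4 groups, entered the comparison, and the group of each came from its title. The groups were male control mice (Ctrl) and male A-LTA4HOE mice (OE), which overexpress LTA4H in adipocytes, at 8 weeks of age after 4 weeks of diet and at 20 weeks of age after 16 weeks of diet. Every mouse received HFD22, a diet with 60 kcal% fat, from 4 weeks of age, so no group on ordinary chow was compared and diet duration cannot be told apart from age. RNA came from epididymal white adipose tissue, the fat pad that lies against the epididymis. The labels give no promoter for the transgene, do not say whether the line is 1 clone, and do not state that each library is a separate mouse. P-values therefore measure the spread between these libraries.

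LTA4H converts leukotriene A4, made from arachidonic acid by 5-lipoxygenase (Alox5) with its partner protein FLAP (Alox5ap), into leukotriene B4. Leukotriene B4 acts on the receptor BLT1 (Ltb4r1) and attracts and activates neutrophils, macrophages and T cells. Visceral fat under a high-fat diet gains macrophages and other immune cells over time, and its adipocytes lose part of their lipid-synthesis program. The value followed here is the interaction: the OE-minus-Ctrl difference at 20 weeks less the OE-minus-Ctrl difference at 8 weeks, on the log2 scale. A negative interaction means that OE stood lower relative to Ctrl at 20 weeks than at 8 weeks, and a positive one that it stood higher.

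Read counts per library summed to between 33626901 and 67576994. Markers of mature adipocytes summed in every library to between 15080 and 64420 CPM (the CPM unit of edgeR, counts relative to the TMM-scaled library size), as the tissue label states. Library 1 of OE at 20 weeks stood apart from the other 7 libraries of that age on the first principal component (22.4 against -96.6 to -66.7). Library 1 of Ctrl and library 1 of OE at 8 weeks stood apart on the second (-94.2 and -91.8). Markers of the epididymal epithelium summed to 3694 CPM in library 4 of Ctrl and 2430 CPM in library 2 of OE at 8 weeks, and to at most 171 CPM in each other library. These same 2 libraries had the highest summed levels of smooth muscle markers, 5644 and 5567 CPM against 532 to 1645 CPM elsewhere. In bulk tissue, fewer cells of a type and less RNA per cell cannot be told apart.

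No gene passed the test of the interaction. Of 19189 genes tested, 0 (0%) had an adjusted p under 0.05 in edgeR's quasi-likelihood test with Benjamini-Hochberg adjustment, and the smallest adjusted p was 0.982. At an unadjusted p under 0.05 there were 650 genes (3.39%), 259 with a positive interaction (1.35%) and 391 with a negative one (2.04%). With no interaction in any gene, evenly spread p-values would put a larger share than 3.39% under 0.05. These gene counts depended on single libraries: with each left out in turn they ranged from 182 to 685 positive and 258 to 703 negative. In all they ranged from 479 without library 1 of OE at 20 weeks to 1388 without library 4 of Ctrl at 8 weeks. Without library 1 of Ctrl at 8 weeks, 472 were positive and 456 negative. limma voom with sample quality weights called 0 genes, with 2111 at an unadjusted p under 0.05, of which 1163 were positive and 948 negative. DESeq2 called 20 genes with a positive interaction (0.104%) and 10 with a negative one (0.0521%), and both sets are described below.

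The width of the intervals shows what 4 libraries a group could resolve. Among the 13322 genes whose mean log2 CPM was 1 or more, the median standard error (SE) of the interaction was 0.21. For 76.3% of these genes the 95% interval lay within a 2-fold change in either direction, and for 95.8% within a 4-fold change. The genotype differences were themselves small: over all 19189 genes tested, their median absolute size was 0.11 at 8 weeks and 0.14 at 20 weeks. Over the same full set of genes, the change with age had a median absolute size of 0.45 in Ctrl and 0.35 in OE.

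**Figure D1:**
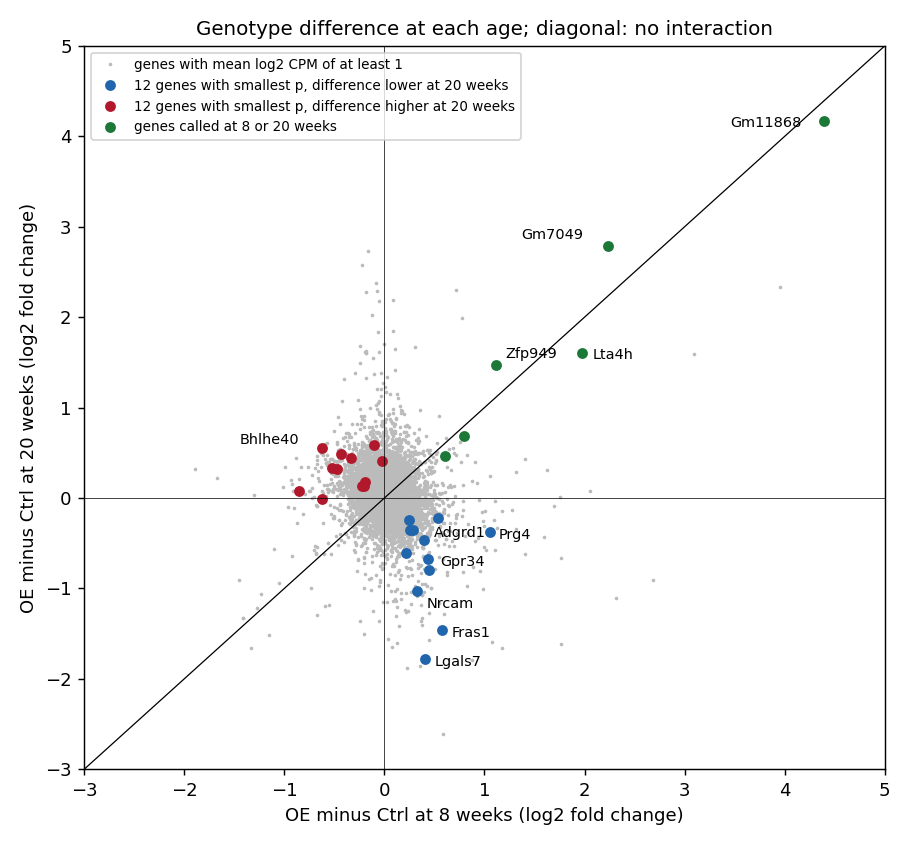
Each grey point is a gene whose mean log2 CPM was 1 or more (13322 genes, 1 outside the axes), with its OE-minus-Ctrl log2 fold change at 8 weeks on the horizontal axis and at 20 weeks on the vertical axis. Genes on the diagonal have no interaction, and Lta4h and the other genes called at either age (green) lie near it. The 12 genes with the smallest interaction p in each direction (blue and red) lie away from it because they were chosen by that p.

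Lta4h, the overexpressed gene (chromosome 10, 93453396 to 93484896, GRCm38), separated the genotypes at both ages. At 8 weeks its level was 104, 79.4, 85.4 and 90.0 CPM in Ctrl and 398, 251, 427 and 335 CPM in OE. In the older mice it was 95.4, 82.4, 89.0 and 87.3 CPM in Ctrl and 270.3, 286.5, 278 and 239 CPM in OE. Every OE library was above every Ctrl library, and the 4 OE libraries at 8 weeks spread more widely than those at 20 weeks. The log2 difference was 1.98 ± 0.14 (SE) at 8 weeks and 1.60 ± 0.14 at 20 weeks. The interaction was -0.38 ± 0.19, with a 95% interval from -0.79 to 0.04 and an unadjusted p of 0.0737 in edgeR, so a smaller difference at 20 weeks was not established.

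Few genes differed between the genotypes at either age, 4 at 8 weeks (0.0208% of genes tested) and 5 at 20 weeks (0.0261%), and 6 different genes in all. None had an interaction that passed the test. Beside Lta4h they were the zinc finger gene Zfp949 with an interaction of 0.36 ± 0.28, and 4 genes whose symbols mark pseudogenes, copies or predicted models. Of these 4, Gm7049 had an interaction of 0.55 ± 0.56 and Gm11868 one of -0.22 ± 0.45. Morf4l1-ps1 had -0.11 ± 0.11 and Morf4l1b -0.15 ± 0.10, and both resemble Morf4l1, so reads could be split among them. Gm11868 was at 0.07 to 0.28 CPM in all 8 Ctrl libraries and at 2.36 to 4.84 CPM in all 8 OE libraries.

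None of the genes around LTA4H in leukotriene metabolism passed the test of the interaction in edgeR. The list's median interaction was -0.20, with a median SE of 0.37. Of 18 members tested of 19 listed, 0 were called. A negative interaction with an unadjusted p under 0.05 was found for 1, beside 2.04% of all genes tested. Alox5, which makes leukotriene A4, had an interaction of -0.19 ± 0.19, and Alox5ap one of -0.21 ± 0.30. Ltc4s, which diverts leukotriene A4 to leukotriene C4, had 0.32 ± 0.43. The receptor gene Ltb4r1 had -0.31 ± 0.37, and Dpep2, a dipeptidase that processes leukotriene D4, had -0.74 ± 0.50. These intervals all span 0, and for Ltc4s, Ltb4r1 and Dpep2 they also hold 2-fold changes.

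The exception by unadjusted p was Alox15, the 12/15-lipoxygenase of resident peritoneal macrophages and eosinophils, at -1.65 ± 0.59 (edgeR, unadjusted p = 0.015, adjusted p = 0.982). Its level at 8 weeks was 9.0, 4.51, 11.3 and 8.16 CPM in Ctrl and 17.0, 19.8, 11.6 and 12.6 CPM in OE. At 20 weeks it was 6.06, 3.36, 5.03 and 6.40 CPM in Ctrl and 1.45, 5.98, 1.34 and 3.49 CPM in OE. All OE libraries exceeded all Ctrl libraries at 8 weeks, and the groups overlapped at 20 weeks. Ggt1, which converts leukotriene C4 to D4, had 0 counts in all 4 Ctrl libraries at 20 weeks, so no fold is given for it. Its level was 12.4, 0, 0.10 and 0 CPM in OE at 20 weeks, 0, 10.8, 35.3 and 25.0 CPM in Ctrl at 8 weeks and 0, 19.3, 7.25 and 39.2 CPM in OE at 8 weeks.

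The smallest p of all genes belonged to Gpr34, a lysophosphatidylserine receptor of macrophages, microglia and mast cells (chromosome X, 13622650 to 13640859). At 8 weeks Gpr34 was at 7.41, 8.31, 8.10 and 8.77 CPM in Ctrl and at 10.4, 13.3, 10.4 and 9.89 CPM in OE. At 20 weeks it was at 38.3, 36.0, 43.1 and 29.2 CPM in Ctrl and at 20.0, 18.1, 26.1 and 27.4 CPM in OE. The groups did not overlap at either age, and their order turned: OE was above Ctrl at 8 weeks and below it at 20 weeks. The log2 difference went from 0.43 ± 0.15 to -0.68 ± 0.15. The interaction was -1.11 ± 0.21 (95% interval -1.56 to -0.66, edgeR unadjusted p = 0.000106, adjusted p = 0.982, DESeq2 adjusted p = 0.00182).

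Adgrd1, an adhesion G protein-coupled receptor (chromosome 5, 129096750 to 129204599), had the same turn. It was at 76.5, 62.1, 70.4 and 70.4 CPM in Ctrl and at 91.0, 99.5, 96.3 and 79.8 CPM in OE at 8 weeks. Its levels at 20 weeks were 94.2, 104.7, 97.5 and 115.7 CPM in Ctrl and at 57.8, 73.6, 74.7 and 92.0 CPM in OE. The groups did not overlap at either age: Ctrl had its higher values at 20 weeks, and OE had most of its higher values at 8 weeks. The interaction was -0.86 ± 0.17 (95% interval -1.23 to -0.49, edgeR adjusted p = 0.982, DESeq2 adjusted p = 0.0028). Gpr34 and Adgrd1 were named for their small p, so intervals clear of 0 follow from that choice.

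In all, 8 of the genes tested (0.0417%) had groups that did not overlap at either age and stood in opposite order. Random order of the libraries would give about this share, and the count was not tested. In 7 of these 8 genes (0.0365%) OE was above Ctrl at 8 weeks and below it at 20 weeks: Gpr34, Adgrd1, Vsig4, C1s2, Clasp2, Slc44a2 and Rps24-ps3. Vsig4 is a complement receptor of resident macrophages, and its interaction was -1.99 ± 0.55. The reverse order held for 1 gene (0.00521%), Usp10. Usp10 encodes a deubiquitinase, and its interaction was 0.38 ± 0.08 (95% interval 0.20 to 0.55). At 8 weeks Usp10 was at 48.6, 48.7, 48.5 and 48.0 CPM in Ctrl and at 40.5, 40.9, 42.1 and 45.8 CPM in OE. After 16 weeks of diet it was at 37.1, 36.1, 34.3 and 39.0 CPM in Ctrl and at 39.9, 42.9, 43.0 and 40.4 CPM in OE. The differences were small, and so was the spread within each group.

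**Figure D2:**
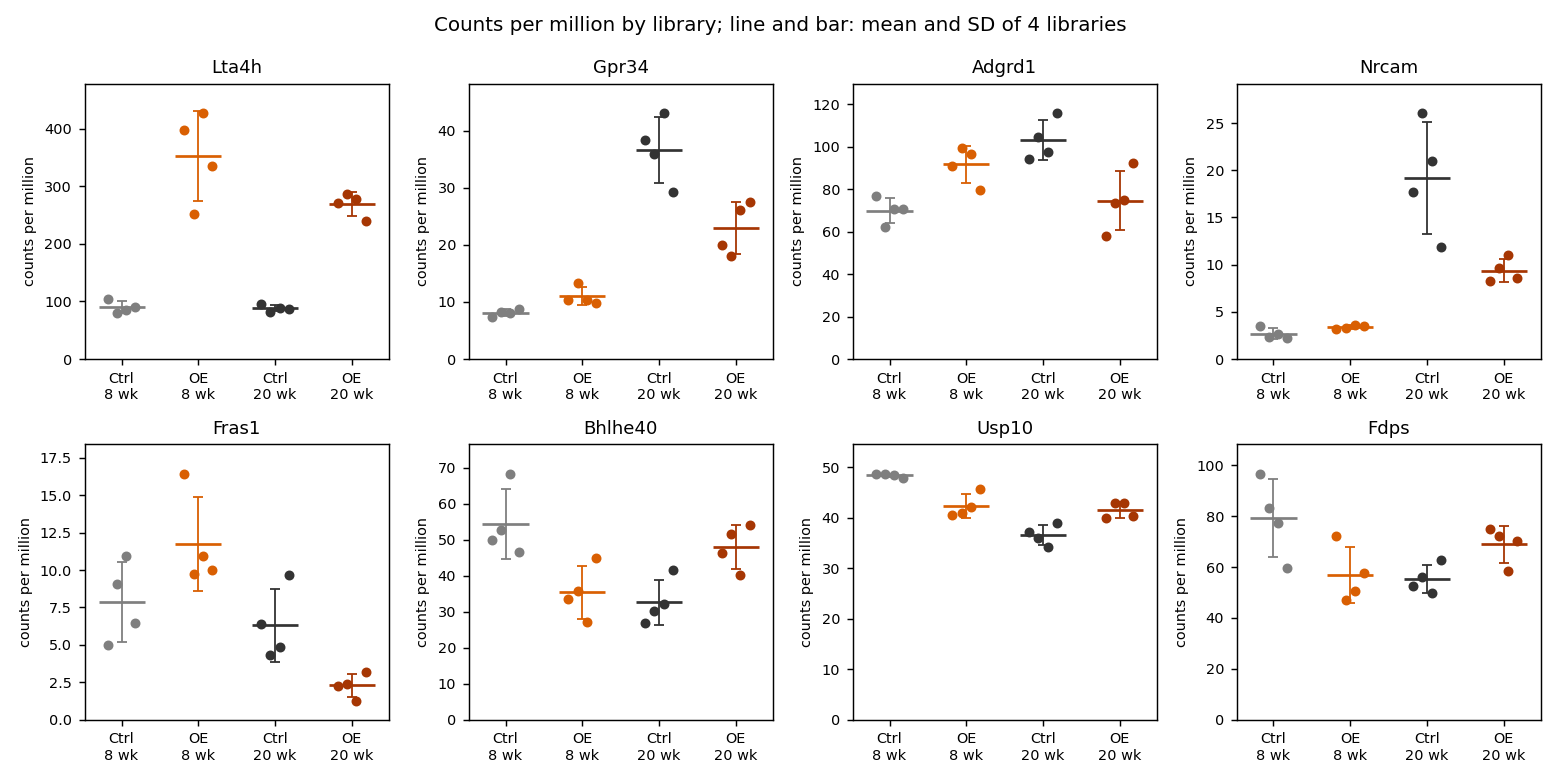
CPM of 8 genes in each of the 16 libraries (linear axis from 0), in the order of the labels' numbers within each group; lines and bars are the mean and SD of 4 libraries. Lta4h separates the genotypes at both ages, Gpr34, Adgrd1 and Nrcam are lower in OE than in Ctrl in every library at 20 weeks, and the means of Bhlhe40, Usp10 and Fdps stand in opposite order at 8 and at 20 weeks.

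C1s1, which encodes the C1s protease of the complement system, had an interaction of -0.49 ± 0.11 (95% interval -0.73 to -0.25, edgeR adjusted p = 0.982, DESeq2 adjusted p = 0.000117). Its level at 8 weeks was 344, 303, 311 and 312 CPM in Ctrl and 408, 339, 407 and 357 CPM in OE. At 20 weeks it was 435, 401, 404 and 436 CPM in Ctrl and 342, 352, 377 and 348 CPM in OE. The groups did not overlap at 20 weeks, and at 8 weeks 1 Ctrl library lay within the range of OE. C1rb, a copy of the gene of the C1r protease, had -0.61 ± 0.14 and C1s2, a copy of C1s1, had -0.44 ± 0.13. Both have close copies beside them in the genome, so reads may be split between copies. Colec12, a scavenger receptor, had -0.64 ± 0.15.

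Nrcam, a neuronal cell adhesion molecule, was low at 8 weeks and higher at 20 weeks, most of all in Ctrl. It was at 3.53, 2.31, 2.70 and 2.27 CPM in Ctrl and 3.22, 3.26, 3.58 and 3.52 CPM in OE at 8 weeks. In the 20-week libraries it was at 17.7, 26.1, 21.0 and 11.9 CPM in Ctrl and 8.22, 9.63, 11.03 and 8.61 CPM in OE. The groups did not overlap at 20 weeks but did at 8 weeks, and the interaction was -1.36 ± 0.29 (95% interval -1.98 to -0.74). The other genes with a negative interaction and the smallest p were Fras1 (-2.04 ± 0.46), which encodes a basement membrane protein, the galectin Lgals7 (-2.19 ± 0.49), Lvrn (-1.25 ± 0.30), an aminopeptidase, Klf11 (-0.75 ± 0.19), a transcription factor, and Prg4 (-1.43 ± 0.37), the lubricating protein of joint and serosal surfaces. Fras1 at 20 weeks was at 6.37, 4.31, 4.85 and 9.70 CPM in Ctrl and at 2.26, 2.42, 1.28 and 3.20 CPM in OE, while at 8 weeks it was at 4.99, 9.09, 10.95 and 6.47 CPM in Ctrl and at 16.4, 9.72, 10.9 and 9.98 CPM in OE. All 10 genes that DESeq2 called with a negative interaction were among the 12 with the smallest edgeR p in that direction, the other two being Klf11 and Prg4.

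Markers of resident macrophages, the tissue macrophages that clear dead cells and take up lipoproteins, had a median interaction of -0.45 against 0.02 over all genes tested. Of 15 members, 4 had an unadjusted p under 0.05, all negative, beside 2.04% of all genes tested. They were Pf4, a chemokine (-0.83 ± 0.19), Stab1, a scavenger receptor (-0.94 ± 0.30), Folr2, a folate receptor (-0.79 ± 0.31), and Gas6, a ligand for the uptake of dead cells (-0.43 ± 0.16). At 8 weeks Pf4 was at 29.4, 31.0, 32.3 and 30.2 CPM in Ctrl and at 34.0, 37.4, 40.0 and 31.8 CPM in OE. At 20 weeks it was at 104.0, 83.8, 92.6 and 66.1 CPM in Ctrl and at 45.3, 69.3, 56.0 and 57.2 CPM in OE. The 2 groups overlapped by 1 library at each age. Stab1 at 20 weeks was at 573, 597, 687 and 425 CPM in Ctrl and at 309, 467, 355 and 422 CPM in OE. Other members did not share the sign: Lyve1, also counted among the endothelial markers, was at 0.34 ± 0.45, Ccl8 at 0.40 ± 0.50 and Mgl2 at 0.32 ± 0.46. Of the 15 members, 11 were negative.

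The wider macrophage list had a median of -0.58, with 19 of 20 members negative. An unadjusted p under 0.05 was found for 2, both negative, beside 2.04% of all genes tested. These were Mertk (-0.52 ± 0.23), an uptake receptor for dead cells, and the scavenger receptor Marco (-2.43 ± 0.998). Over single omissions the list's median ranged from -0.75 to -0.38 and the count of members under 0.05 from 0 to 10. Without library 4 of Ctrl and library 2 of OE at 8 weeks they were -0.41 and 0. The list for lipid-associated macrophages, the Trem2-positive cells that gather in obese fat, had a median of -0.18 with 0 of 21 members at an unadjusted p under 0.05. This list shares Fabp4 with the mature adipocyte markers, so it does not measure these cells alone. In Ctrl at 8 weeks it summed to 22330 to 36800 CPM, against 1442 to 2533 CPM for the wider macrophage list. Trem2 itself had an interaction of -1.46 ± 0.73. Its level at 8 weeks was 11.7, 9.07, 7.33 and 7.59 CPM in Ctrl and 11.4, 50.8, 7.81 and 7.71 CPM in OE, so that library 2 of OE stood above all others. At 20 weeks Trem2 ranged from 219.6 to 432 CPM in Ctrl and was at 147, 289, 256 and 345 CPM in OE. The list's median was 0.09 without library 4 of Ctrl and library 2 of OE at 8 weeks, so its sign rests on these libraries.

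Markers of mesothelial cells, the flat epithelium that covers the surface of visceral fat, had a median interaction of -1.40. Of 12 members, 8 had an unadjusted p under 0.05 and all 8 were negative, beside 2.04% of all genes tested. They were Muc16, Lrrn4, Upk3b, Upk1b, Bnc1, Msln, Gpm6a and Wt1, with interactions from -1.87 ± 0.49 (Muc16) to -1.05 ± 0.43 (Wt1). None passed adjustment over all genes in edgeR (adjusted p = 0.982 for Muc16).

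Lrrn4, a mesothelial surface protein, was at 20.6, 28.0, 38.2 and 24.6 CPM in Ctrl and at 45.7, 30.0, 40.9 and 28.0 CPM in OE at 8 weeks. Its levels at 20 weeks were 30.7, 20.2, 22.3 and 50.3 CPM in Ctrl and at 9.16, 16.2, 5.47 and 15.8 CPM in OE. The groups overlapped at 8 weeks and did not at 20 weeks, where library 3 of OE was lowest and library 4 of Ctrl highest. Muc16, the CA125 mucin, had the same extremes at 20 weeks, 26.4 CPM in library 4 of Ctrl and 2.78 CPM in library 3 of OE. The keratin genes Krt8 (0.68 ± 1.16) and Krt18 (0.64 ± 1.21), which other epithelia also express, did not share the sign. The list's median ranged from -1.59 to -1.15 when each library was left out in turn, with 6 to 9 members at an unadjusted p under 0.05. Without library 1 of OE at 20 weeks and library 1 of both groups at 8 weeks, the median was -1.08 and 4 members had an unadjusted p under 0.05. How much surface mesothelium each dissected pad carried was not tested.

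**Figure D3:**
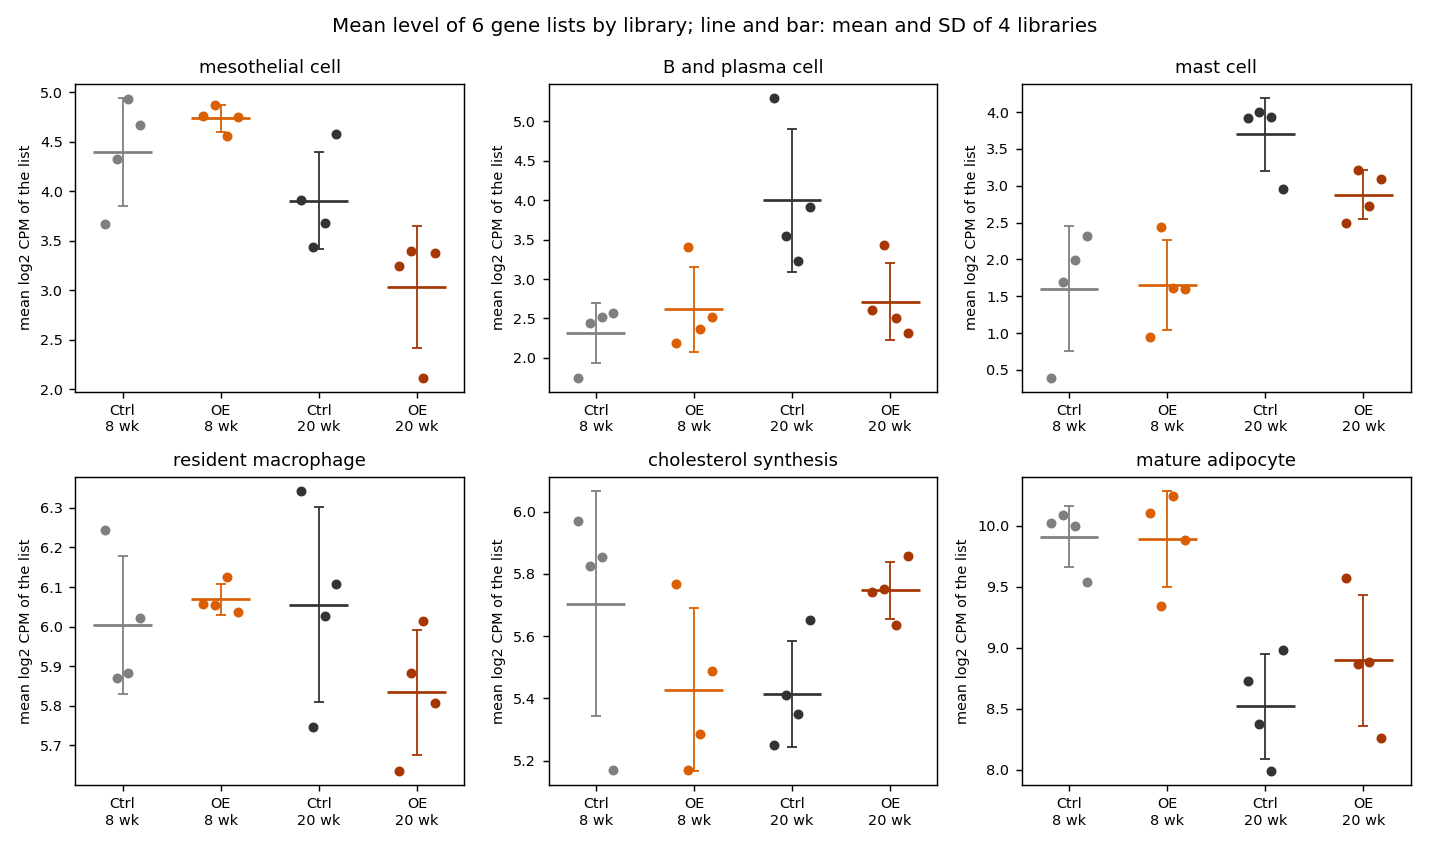
Mean log2 CPM of 6 gene lists in each of the 16 libraries (vertical axes differ and do not start at 0), with the mean and SD of 4 libraries. Mesothelial, B and plasma cell and mast cell markers are on average lower in OE than in Ctrl at 20 weeks with single libraries far from the rest, and cholesterol synthesis genes are on average lower in OE at 8 weeks and higher at 20 weeks.

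B cell markers had the most negative median of the lists, -2.12. Of 17 members, 7 had an unadjusted p under 0.05, all negative, beside 2.04% of all genes tested. Among them were Pax5, Ms4a1, Cd79b, Cd79a and Bank1. Pax5, the transcription factor that fixes B cell identity, had an interaction of -3.24 ± 0.86. At 20 weeks Pax5 was at 11.2, 2.90, 1.53 and 3.05 CPM in Ctrl and at 0.88, 1.31, 0.47 and 0.32 CPM in OE, and at 8 weeks it was at 0.64 to 1.30 CPM in Ctrl and 0.81 to 2.99 CPM in OE. Library 1 of Ctrl at 20 weeks stood far above the rest. Leaving this library out moved the list's median to -1.10, while 6 to 9 members had an unadjusted p under 0.05 over all single omissions. The immunoglobulin genes Igkc (-2.66 ± 1.46) and Ighm (-0.42 ± 0.73) were less certain.

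The T cell list moved with the same library: its median was -1.04, and -0.45 without library 1 of Ctrl at 20 weeks. Of 20 members, 2 had an unadjusted p under 0.05, both negative, beside 2.04% of all genes tested. They were Cd28 (-1.29 ± 0.43) and Cd5 (-2.29 ± 0.86). Cxcr5, the receptor that guides B cells to follicles, was at 7.79 CPM in that Ctrl library against 0.26 to 2.097 CPM in the other 15 libraries. Its ligand gene Cxcl13 was at 44.2 CPM there against 0.56 to 15.7 CPM elsewhere.

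Mast cells, tissue cells loaded with proteases and histamine, had a list median of -1.02. Of 10 members, 5 had an unadjusted p under 0.05, all negative, beside 2.04% of all genes tested. These members were Ms4a2, Cpa3, Kit, Mcpt4 and Tpsb2. Cpa3, a mast cell carboxypeptidase, had an interaction of -1.41 ± 0.57. After 16 weeks of diet it was at 55.4, 60.3, 57.1 and 28.7 CPM in Ctrl and at 14.8, 30.1, 22.4 and 29.9 CPM in OE, and at 8 weeks it was at 2.50 to 8.45 CPM in Ctrl and 3.57 to 12.4 CPM in OE. Of the Ctrl libraries at 20 weeks, 3 lay above all OE libraries and library 4 lay among them. The chymase gene Mcpt4 was at 63.2, 71.5, 67.4 and 30.9 CPM in Ctrl and 17.0, 32.6, 26.5 and 29.1 CPM in OE at 20 weeks, with library 4 of Ctrl again lowest in its group. Leaving out 1 library at a time gave list medians from -1.27 to -0.72 and 1 to 6 members at an unadjusted p under 0.05. Ccr3, the eotaxin receptor of eosinophils and mast cells, had an interaction of -1.99 ± 0.76.

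Bhlhe40, a transcriptional repressor tied to the circadian clock and to hypoxia (chromosome 6, 108660629 to 108666925), had the smallest p among genes with a positive interaction. At 8 weeks it was at 50.03, 52.7, 68.3 and 46.5 CPM in Ctrl and at 33.4, 35.8, 27.2 and 45.0 CPM in OE. In the 20-week libraries it was at 26.9, 30.2, 32.1 and 41.5 CPM in Ctrl and at 46.3, 51.6, 40.2 and 54.0 CPM in OE. OE lay wholly below Ctrl at 8 weeks, and above it at 20 weeks except for 1 overlapping pair of libraries. The interaction was 1.18 ± 0.24 (95% interval 0.66 to 1.69, edgeR unadjusted p = 0.000218, adjusted p = 0.982, DESeq2 adjusted p = 0.0053). Of the circadian clock list, 15 of 19 members had a positive interaction, beside 10184 of 19189 genes tested, and the median was 0.21. An unadjusted p under 0.05 was found for 1, beside 1.35% (positive) of all genes tested. This was Bhlhe40 itself, already named for its small p. The list's mean log2 CPM at 20 weeks was 4.05 to 4.15 in Ctrl and 4.18 to 4.55 in OE. At 8 weeks the groups overlapped, at 3.96 to 4.79 in Ctrl and 4.10 to 4.70 in OE.

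Further genes with a positive interaction and a small p were Auts2 (0.70 ± 0.19), Phlda1 (0.85 ± 0.24), Ppp1r3b (0.94 ± 0.28), which targets a phosphatase to glycogen, Btbd3 (0.44 ± 0.13), Pgp (0.35 ± 0.11), a glycerol-3-phosphate phosphatase, Mark4 (0.34 ± 0.11), a kinase, and the mitochondrial ribosomal RNA mt-Rnr2 (0.62 ± 0.20). Ppp1r3b at 8 weeks was at 26.5, 22.0, 34.9 and 20.2 CPM in Ctrl and at 20.5, 13.4, 11.6 and 11.8 CPM in OE. At 20 weeks it was at 18.2, 15.8, 18.4 and 20.3 CPM in Ctrl and at 22.3, 19.5, 19.6 and 15.5 CPM in OE, so the genotypes were apart mainly at 8 weeks. Btbd3 was the reverse: it lay within 41.9 to 53.0 CPM in all libraries at 8 weeks, and at 20 weeks it was at 34.9, 25.6, 30.1 and 28.1 CPM in Ctrl and 40.7, 40.9, 36.6 and 40.1 CPM in OE.

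Genes of cholesterol synthesis formed the list with the most members at an unadjusted p under 0.05 in the positive direction. All 23 members had a positive interaction, with a median of 0.58, and 8 had an unadjusted p under 0.05, beside 1.35% of all genes tested. Among them were Fdps, Sqle, Fdft1, Cyp51, Sc5d, Mvd and Idi1. Fdps, Mvd and Idi1 make isoprenoid units, Fdft1 joins them into squalene, Sqle oxidises squalene, and Cyp51 and Sc5d act on the sterol ring. Tm7sf2, a sterol reductase that was not on the list, was among the 12 genes with the smallest p (0.77 ± 0.19). Srebf2, the factor that drives the pathway, was at 0.03 ± 0.22.

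Fdps was at 96.6, 83.2, 77.4 and 59.8 CPM in Ctrl and at 72.3, 47.1, 50.7 and 57.6 CPM in OE at 8 weeks. Its levels at 20 weeks were 52.8, 56.1, 49.96 and 62.6 CPM in Ctrl and at 75.0, 72.1, 58.5 and 70.3 CPM in OE. OE lay mostly below Ctrl at 8 weeks and mostly above it at 20 weeks, with an overlap at both ages, and the interaction was 0.79 ± 0.21 (95% interval 0.34 to 1.25). Sqle, a rate-limiting enzyme of the pathway, was at 38.7, 33.3, 38.7 and 29.3 CPM in Ctrl and at 30.6, 24.2, 20.8 and 28.2 CPM in OE at 8 weeks. After 16 weeks of diet it was at 20.3, 24.1, 22.0 and 26.1 CPM in Ctrl and at 25.4, 32.3, 24.9 and 47.0 CPM in OE, and the interaction was 0.92 ± 0.26. None of these passed adjustment over all genes in edgeR (adjusted p = 0.982 for Fdps and Sqle).

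At 8 weeks the list's mean log2 CPM was lowest in library 4 of Ctrl (5.17) and library 2 of OE (5.17), the same 2 libraries that carried epididymal markers. Leaving out library 4 of Ctrl gave the highest list median, 0.81, and leaving out library 2 of OE the lowest, 0.47. Over all single omissions 5 to 19 members had an unadjusted p under 0.05. Without both libraries the median was 0.63 with 16 of 23 members under that threshold, and with 2 surrogate variables it was 0.40 with 14 members.

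Promoters of this list were searched for a pair of short motifs on both strands of the 250 bases before the annotated start, in RefSeq windows of GRCm38.p6. They were a core of the sterol regulatory element, TCACNCCAC, which SREBP factors bind, and CCAATCAG, an extended CCAAT box of NF-Y, a partner of SREBP at many sterol genes. Both motifs were chosen after the list's values had been seen. Of the 23 genes, 15 had a window. TCACNCCAC was in 1 of them (6.67%), against 177 of 14031 tested genes with a window (1.26%), and CCAATCAG was in 5 (33.3%), against 820 (5.84%). The matches are shown 5′ to 3′ on the gene's strand, because these genes shared a positive interaction, with the motif in capitals (the CCAATCAG matches read on the opposite strand). No 2 matches overlapped each other. A match describes letters and is not evidence of binding.
Hmgcs1 (chr13:119690194-119690242, plus strand): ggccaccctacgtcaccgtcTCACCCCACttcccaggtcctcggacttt
Mvk (chr5:114444232-114444268, plus strand): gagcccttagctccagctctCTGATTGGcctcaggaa
Idi1 (chr13:8885538-8885585, plus strand): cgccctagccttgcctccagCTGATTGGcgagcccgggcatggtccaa
Lss (chr10:76531520-76531567, plus strand): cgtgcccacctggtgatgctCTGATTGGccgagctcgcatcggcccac
Ebp (chrX:8193543-8193590, minus strand): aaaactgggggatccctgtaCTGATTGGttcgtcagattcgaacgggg
Sc5d (chr9:42264301-42264347, minus strand): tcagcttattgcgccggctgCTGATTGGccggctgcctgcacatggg

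Of the 6 members with a match, Idi1 and Sc5d had an unadjusted p under 0.05, beside 8 of all 23 members of the list. Whether a match goes with the interaction was not tested. Hmgcs1, the synthase at the start of the pathway, had an interaction of 0.58 ± 0.42, Mvk, mevalonate kinase, 0.53 ± 0.29, and Idi1, an isomerase of isoprenoid units, 0.58 ± 0.27. Lss, which closes the sterol rings, had 0.69 ± 0.40, Ebp, a sterol isomerase, 0.19 ± 0.18, and Sc5d, a sterol desaturase, 0.85 ± 0.36.

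Other lipid genes also leaned to the positive side, where 1.35% of all genes tested had an unadjusted p under 0.05. Mature adipocyte markers were positive in 20 of 20 members with a median of 0.38, but 0 had an unadjusted p under 0.05 and the median was 0.10 without library 1 of OE at 20 weeks. Their mean log2 CPM in that group was 9.57 in library 1 against 8.26 to 8.88 in the other 3. Genes of de novo lipogenesis and triglyceride synthesis had a median of 0.37 with 1 of 22 at an unadjusted p under 0.05, Elovl6, a fatty acid elongase (0.82 ± 0.36), and the median was 0.26 without that library. Lipid droplet and lipolysis genes had a median of 0.38, and 0.07 without it. Among thermogenic genes, Cpt1b, the muscle and brown fat form of the fatty acid importer of mitochondria (1.06 ± 0.34), and Dio2, which activates thyroid hormone (1.34 ± 0.61), had an unadjusted p under 0.05, 2 of 14 members. Ucp1, the uncoupling protein of brown fat, was at 1.22 ± 1.94, a range too wide to read.

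**Figure D4:**
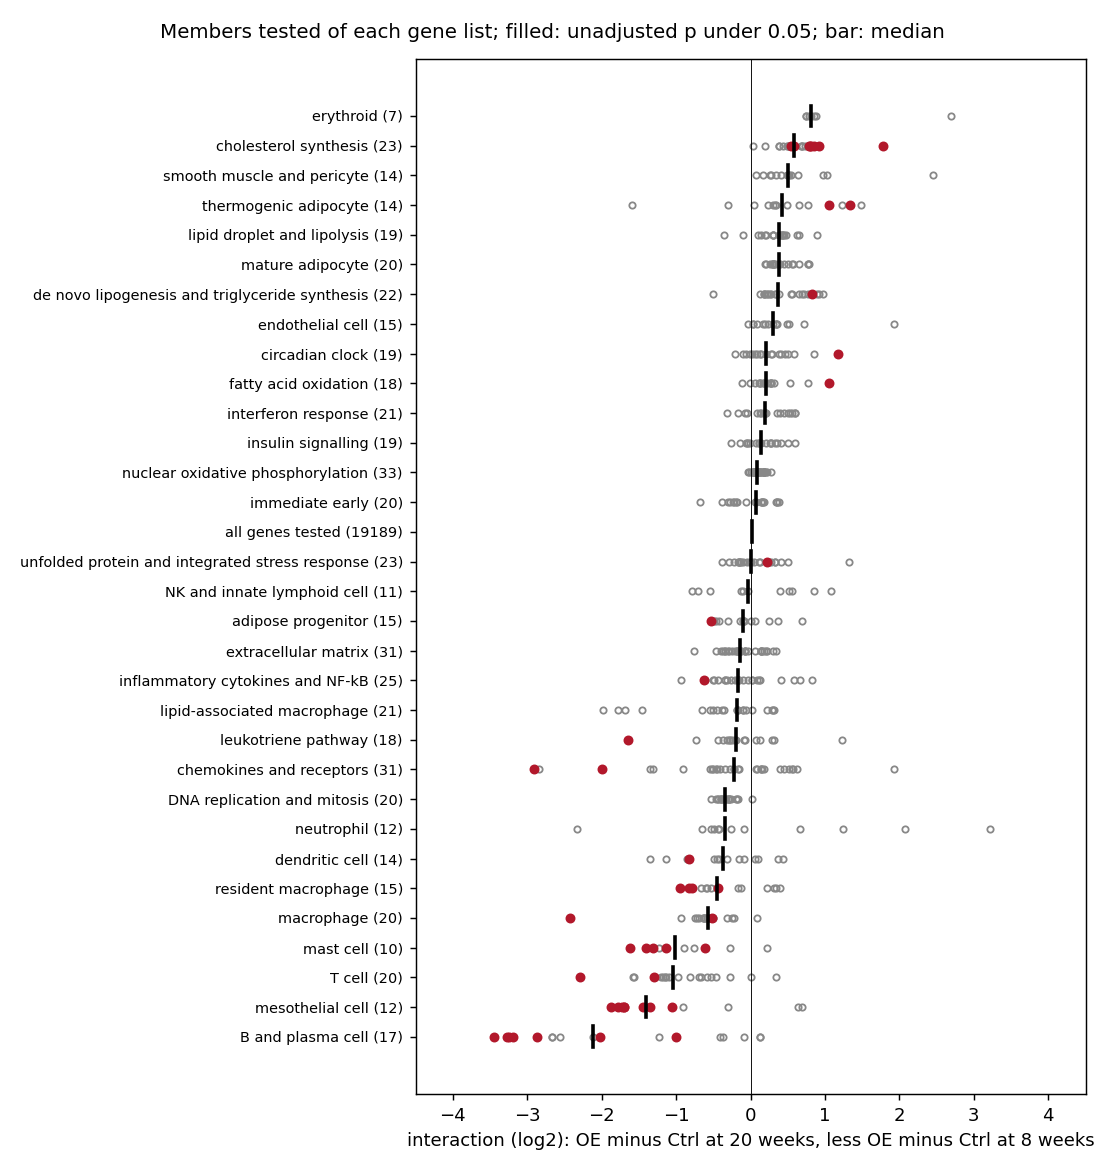
Interaction (log2, horizontal axis) of each tested member of 31 gene lists, sorted by list median, with the number tested in brackets; filled points have an unadjusted p under 0.05, bars are medians, and the bar for all genes tested is at 0.02. B and plasma cell, mesothelial, T cell, mast cell and macrophage lists lie to the left and the erythroid and cholesterol synthesis lists to the right. Outside the axis lies 1 member (Ggt1). The epididymal list (median 0.84, 5 members tested) is not plotted.

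Most other lists had few or no members at an unadjusted p under 0.05, beside 1.35% (positive) and 2.04% (negative) of all genes tested. Genes of nuclear oxidative phosphorylation had a median of 0.09 with 0 of 33 members under that threshold, insulin signalling genes 0.15 with 0 of 19, and extracellular matrix genes -0.14 with 0 of 31. Genes of the stress responses had 0.01 with 1 of 23, Atf4 (0.23 ± 0.10), and immediate early genes had 0.07 with 0 of 20. Interferon response genes had 0.20 with 0 of 21, endothelial markers 0.30 with 0 of 15, and DNA replication genes -0.34 with 0 of 20. Inflammatory cytokine and NF-kB genes had -0.17 with 1 of 25, Il18 (-0.63 ± 0.26), and chemokines and receptors -0.22 with 2 of 31, Cxcr5 and Ccr3. Adipose progenitor markers had -0.10 with 1 of 15, Pdgfra (-0.54 ± 0.24), and dendritic cell markers -0.38 with 1 of 14, Cd83 (-0.82 ± 0.37). The fatty acid oxidation list had 0.21 with 1 of 18, Cpt1b.

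Leaving out each library in turn changed the sign of several of these medians. The interferon median ranged from -0.08 to 0.39, the extracellular matrix median from -0.35 to 0.0029, the immediate early median from -0.06 to 0.16 and the stress response median from -0.07 to 0.10. Others kept their sign over a wide range: DNA replication genes from -0.48 to -0.11, chemokines and receptors from -0.48 to -0.03, inflammatory cytokine and NF-kB genes from -0.30 to -0.04, oxidative phosphorylation genes from 0.01 to 0.17 and fatty acid oxidation genes from 0.08 to 0.36.

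In further lists 1 library moved the median more. Smooth muscle and pericyte markers had 0.50 with 0 of 14 at an unadjusted p under 0.05, and -0.19 without library 4 of Ctrl at 8 weeks. Neutrophil markers had -0.35 with 0 of 12, and 0.19 without library 2 of Ctrl at 20 weeks. Natural killer cell markers had -0.03 with 0 of 11, and 0.56 without library 1 of Ctrl at 20 weeks. Erythroid genes had 0.81 with 0 of 7, and 0.07 without library 1 of OE at 20 weeks, in which Hba-a1 was at 852 CPM against 189 to 272 CPM in the other 3 of its group. Of 18 epididymal markers 5 were tested, with 1 at an unadjusted p under 0.05, Adam7, which had 0 counts in all 4 Ctrl libraries at 20 weeks.

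The 20 positive calls of DESeq2 came in unlike groups. For 3 genes the fold was moderate: Bhlhe40, Usp10 and Fgl1, a hepatokine of the fibrinogen family at 1.60 (DESeq2, adjusted p = 0.039). Fgl1 was low throughout, at 0.32 to 1.10 CPM over all libraries. The other 17 had fitted log2 values over 20, which are not sizes that can be read, since all 17 had 0 counts in the 4 Ctrl libraries at 20 weeks. All 17 had at least 10 counts in library 1 of OE at 20 weeks. They include Dnah5, Ak7, Sntn and Ccdc153, genes of motile cilia, the epithelial genes Cdh16, Elf3 and Fermt1, and Srd5a2, which makes dihydrotestosterone. Cuzd1 was at 16.1, 0, 1.23 and 0 CPM in OE and at 0 in Ctrl at 20 weeks, and at 8 weeks it was at 0.32, 23.6, 111.6 and 37.7 CPM in Ctrl and 0.47, 26.2, 14.8 and 67.4 CPM in OE. Both genotypes had Cuzd1 at 8 weeks, mainly in libraries 2, 3 and 4. In edgeR Cuzd1 had an unadjusted p of 0.041 and an adjusted p of 0.982.

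A second pattern appeared when library 4 of OE at 20 weeks was left out, the only single omission with a call in edgeR. The 3 genes then called, all negative, were Gm8210 (-3.81, adjusted p = 1.63e-07), Gm13841 (-3.08, adjusted p = 1.63e-07) and LOC115487184 (-2.64, adjusted p = 0.0121). Gm8210 (chromosome 1, 43189052 to 43189773) and Gm13841 (chromosome 5, 115801543 to 115802209) are pseudogenes. Gm8210 was at 47.1, 41.9, 49.7 and 50.5 CPM in OE at 8 weeks, and at 2.59 to 3.31 CPM in Ctrl. In the 20-week libraries it was at 3.36, 3.19, 3.77 and 52.4 CPM in OE and at 2.49 to 3.54 CPM in Ctrl. Gm13841 was at 30.3 to 35.9 CPM in OE at 8 weeks and at 4.27, 4.30, 4.56 and 39.3 CPM in OE at 20 weeks, against 3.60 to 4.81 CPM in all 8 Ctrl libraries. The single high library of OE at 20 weeks thus had the level of the OE libraries at 8 weeks, and the other 3 had that of Ctrl.

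The ribosomal protein gene Rpl29 had the opposite pattern in the same libraries. It was at 117, 103, 116 and 117 CPM in OE and at 217, 208, 229 and 175 CPM in Ctrl at 8 weeks. At 20 weeks it was at 202, 222, 217 and 123 CPM in OE and at 239, 234, 239.7 and 213 CPM in Ctrl. With all libraries the interaction was 0.60 ± 0.21 for Rpl29, -1.62 ± 1.02 for Gm8210 and -1.50 ± 0.82 for Gm13841, and none passed the test. Lta4h did not follow this division: in OE at 20 weeks it was at 239 CPM in library 4 and at 270.3 to 286.5 CPM in the other 3.

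**Figure D5:**
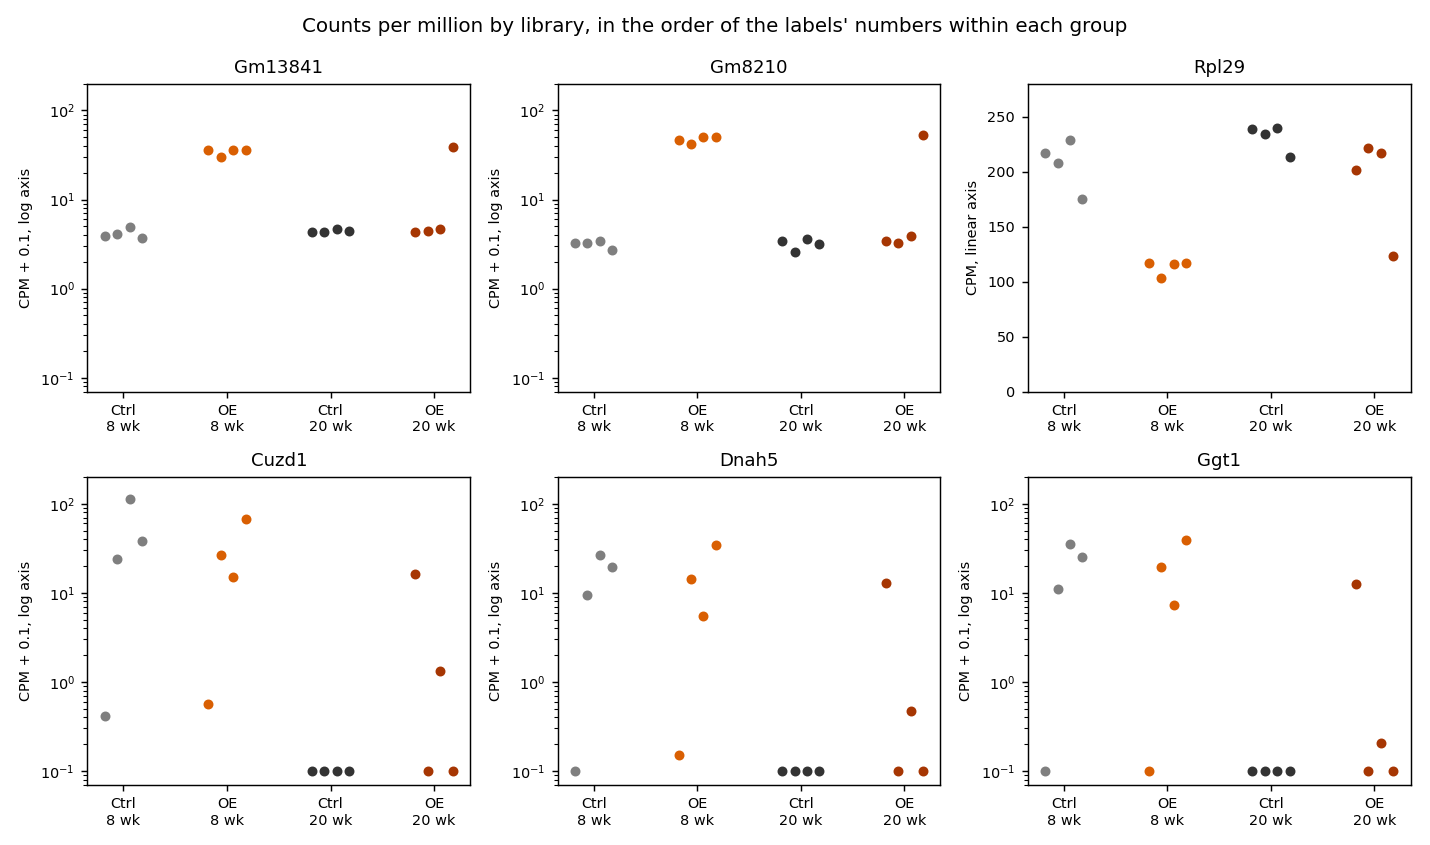
CPM of 6 genes by library, plotted as CPM + 0.1 on a log axis except Rpl29, which is on a linear axis from 0. In the upper row library 4 of OE at 20 weeks has the levels of the OE libraries at 8 weeks (Gm8210 at 52.4 CPM) and the other 3 those of Ctrl, and in the lower row library 1 of OE at 20 weeks has Cuzd1, Dnah5 and Ggt1 transcripts that all 4 Ctrl libraries of that age lack.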

How the data were processed

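Read counts of 16 mouse RNA-seq libraries were analysed. The tools named in the submitters' processing notes are bcl2fastq 2.20.0, Trimmomatic, HISAT2 2.1.0 and StringTie 2.1.3b, with the build mm10, and the library kit keeps strand. The strand setting and the annotation release were not given in the sources used here, so reads of overlapping antisense genes may be mixed. The deposited whole-number counts of 45777 genes were tested. The FPKM values deposited by the authors (scaled by gene length and depth) and their deposited TPM values were not tested. Labels name no sequencing batch.

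Genes with enough counts (filterByExpr in edgeR 4.0.16 under R 4.3.3, minimum count 10) were scaled by TMM and fitted with robust quasi-likelihood over the 4 groups (12 residual degrees of freedom). Adjustment was by Benjamini-Hochberg over 19189 genes, with calls under 0.05. SE and 95% intervals came from the same fit. Log2 CPM used a prior count of 2. List counts use unadjusted p, and no test was made of a list. The fit was checked on simulated counts.

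Genes were named by a rule: Lta4h, the 12 smallest p in each direction with a mean log2 CPM at or above 1 and no predicted or clone symbol, genes called at either age, the tested leukotriene members, and up to 4 members of each of 32 lists. Other list members at an unadjusted p under 0.05, the genes whose groups stood in opposite order, genes called only under an alternative, Rpl29 and further single genes were named after their values were seen. The members and lists were chosen with earlier results of these data known. Alternatives were DESeq2 1.42.0, limma 3.58.1 voom, RLE scaling, other count filters, fits without robust estimation, 2 surrogate variables (sva 3.50.0), a replicate block and omitted libraries. Coordinates and promoter windows came from RefSeq on GRCm38.p6, the build of the files. Values of some list members are not reported here.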

Additional observations from a re-analysis of the deposited data

Results flagged for a closer look

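Of 248 groups of 4 libraries examined, 9 held 1 library far from the other 3 on the log2 CPM scale. Chance alone marks about 1 group in 20 in this way. Among genes, Prg4 was at 3.91 in library 2 of Ctrl at 20 weeks (others 4.40 to 4.46), and Btbd3 at 5.20 in library 3 of OE at 20 weeks (others 5.33 to 5.35). Zfp949 was at 3.67 in library 4 of Ctrl at 8 weeks (others 3.22 to 3.27), and Gm11868 at 1.27 in library 1 of OE at 20 weeks (others 2.14 to 2.29). Among list means, mast cell markers were at 2.96 in library 4 of Ctrl at 20 weeks (others 3.92 to 4.00). B and plasma cell markers were at 1.75 in library 1 of Ctrl at 8 weeks (others 2.44 to 2.57). Neutrophil markers were at 1.05 in library 2 of OE at 20 weeks (others -0.71 to -0.63). Mesothelial markers were at 2.12 in library 3 of OE at 20 weeks (others 3.24 to 3.39). DNA replication and mitosis genes were at 2.84 in library 2 of Ctrl at 8 weeks (others 3.15 to 3.20).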

How the results depend on the processing

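The count of 0 interaction calls in each direction held under all alternatives run but DESeq2 (20 higher, 10 lower) and the omission of library 4 of OE at 20 weeks. Over single omissions the calls ranged from 0 to 0 for higher and 0 to 3 for lower interactions, 4 to 9 for OE against Ctrl at 8 weeks and 3 to 6 at 20 weeks. The 9 calls at 8 weeks came without library 4 of OE at 20 weeks. The 3 calls at 20 weeks came without libraries 2 or 3 of Ctrl, or 1, 2 or 3 of OE, at that age. At 8 weeks DESeq2 called 15 genes and voom 12, against 4, and at 20 weeks they called 60 and 20, against 5. Leaving out library 1 of OE at 20 weeks with library 1 of both groups at 8 weeks gave 3 at 20 weeks. The cause was not tested.

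To see whether the library numbers pair Ctrl with OE, each gene's group mean was subtracted from its log2 CPM. The remaining deviations of same-numbered libraries correlated at 0.83, -0.20, -0.03 and 0.28 at 8 weeks. At 20 weeks they correlated between -0.24 and 0.03, so the numbers were not taken to pair libraries. By these deviations library 1 of Ctrl at 8 weeks correlated best with its own number, but library 4 of Ctrl did so with library 2 of OE (0.69). With the replicate number as a block, 0 interactions were called in each direction, 4 genes at 8 weeks and 4 at 20 weeks. For 78 named genes under 27 settings, 13 of 2105 interactions became called (12 reported above under DESeq2, and Ggt1), 2 with no call moved past their SE (Gm7049 to -0.04 and Mgst3 to -0.24 with 2 surrogate variables), 0 reversed, and the other 2090 kept their call and direction or moved by less than their SE. A change of sign counted as a reversal only where the unadjusted p was under 0.05. The median of the 5 tested epididymal markers was 0.84, -0.58 without library 4 of Ctrl at 8 weeks, 1.96 without library 1 of Ctrl at 20 weeks, and 5.17 at a minimum count of 50, where fewer were tested.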
